A study of Rattus norvegicus with 26 samples.

Results

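The untreated change of the injured rat spinal cord between day 7 and day 14 after injury was measured by comparing the 3 +PBS-1w libraries with the 3 sub-SCI libraries. These are 6 of the 26 libraries of the series. Both groups are adult female wild-type Sprague-Dawley rats, given as postnatal day 70 and 250 g, whose cord was compressed at thoracic level T10 by a 60 g clip held for 1 min. The sub-SCI cords were taken at day 7, the subacute stage at which the other rats were treated. The +PBS-1w rats received phosphate-buffered saline (PBS) by intrathecal injection at day 7 and were taken at day 14. In the other arm of the study, human mesenchymal stem cells from umbilical cord (hUC-MSCs) were injected. The study's methods give daily cyclosporin A to the rats without naming groups. Time after injury, the PBS injection, any difference in cyclosporin A and the library group cannot be told apart in this comparison. Each library holds poly(A) RNA of a 5 mm cord segment centered at the lesion, so that fewer cells of a type and less RNA per cell cannot be told apart. The labels do not say that a library is 1 rat, and p-values measure the spread between libraries. All genes that passed an expression filter were compared, 17990 of the 32883 in the count table. The 4 Intact libraries (untreated, uninjured cord), the later vehicle groups and the hUC-MSC groups serve here only to place a gene's level and to estimate the spread.

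A compression injury of the cord kills neurons and glia at the epicenter and lets blood into the tissue. In the following days resident microglia, astrocytes, ependymal cells and oligodendrocyte precursors divide, and macrophages enter and take up myelin and red blood cells. Fibroblasts and reactive astrocytes then lay down a scar around the lesion, while spared neurons and glia recover part of their own expression.

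The 6 libraries held between 24391212 and 35403139 counted reads, within the range of 19496602 to 43468509 over the series. Levels are given as CPM, a gene's counts relative to the library's total, after TMM scaling. Replicate 3 stood apart from replicates 1 and 2 in both groups. Summed over 15 neuron marker genes, the sub-SCI libraries held 2065, 2925 and 652 CPM and the +PBS-1w libraries 3665, 2871 and 1624 CPM, against 13111 to 15704 CPM in Intact. Summed over 17 fibroblast and scar matrix genes they held 7143, 7514 and 16180 CPM and then 5462, 5650.0 and 9845 CPM. Replicate 3 thus had the fewest neuron transcripts and the most scar matrix transcripts within each group. The 9 thoracic Hox genes tested, which mark the level of the cord, summed to 105 to 124 CPM in both groups. Intact held 193 to 221 CPM, so the sum also differs between injured and uninjured cord. Equal sums therefore do not show that the segments match in level.

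Between day 7 and day 14, 28 genes passed the study's thresholds in edgeR's test. The study used these thresholds with DESeq2, in other comparisons. Here DESeq2 on all libraries called 149 higher and 123 lower at the same thresholds. Neither the number of calls nor the direction with more of them held across the tests. Genes were counted as differentially expressed (DEGs) where the log2 fold change lay beyond 1 in either direction and the adjusted p was under 0.01 (quasi-likelihood test of edgeR over all 26 libraries, adjusted by Benjamini-Hochberg). There were 9 DEGs higher in +PBS-1w, 0.05% of the genes tested, and 19 lower, 0.106%. At an adjusted p under 0.05 without a fold threshold, 239 genes were higher (1.33%) and 272 lower (1.51%). Gene groups are counted by these wider calls, so that 1.33% higher and 1.51% lower are the shares to set beside each count. The median log2 fold change of all genes tested was 0.01. The log2 fold changes of the 239 higher genes had a median of 1.18 and those of the 272 lower genes a median of -0.94.

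**Figure D1:**
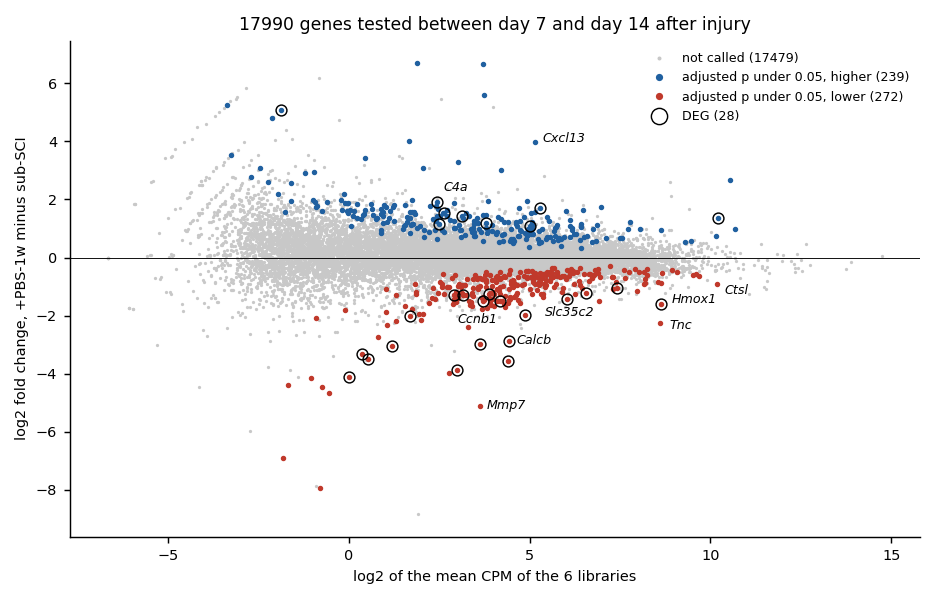
Each point is 1 of 17990 genes, with the log2 of its mean CPM over the 6 libraries on the x axis and the log2 fold change of +PBS-1w over sub-SCI on the y axis. Blue points are the 239 genes higher and red points the 272 genes lower at an adjusted p under 0.05, circles mark the 28 DEGs, and the called genes lie over the whole range of levels.

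The number of calls rested on single libraries. Without sub-SCI replicate 3 or without +PBS-1w replicate 2, 0 of the 28 DEGs stayed past the thresholds in edgeR's test. Leaving out replicate 3 of both groups, the libraries that stand apart and an alternative chosen after seeing the data, also left 0 of the 28, with 92 higher and 29 lower genes at an adjusted p under 0.05 and 1307 and 1031 at an unadjusted p under 0.05. In these 3 fits all 239 higher and all 272 lower genes kept the sign of their change, and the calls at an adjusted p under 0.05 numbered 12 higher and 20 lower without sub-SCI replicate 3 and 50 and 37 without +PBS-1w replicate 2. With the replicate number as a block, 4 of the 9 higher and 13 of the 19 lower DEGs stayed past the thresholds. That fit called 4 higher and 16 lower DEGs, and 256 and 317 genes at an adjusted p under 0.05. The 28 DEGs were among those of DESeq2 on all libraries, and edgeR on the 6 libraries alone called 0 (4 higher and 6 lower genes at an adjusted p under 0.05, 1335 and 1422 at an unadjusted p under 0.05).

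The genes of cell division were lower at day 14 than at day 7. Of 17 mitosis genes tested, 9 fell at an adjusted p under 0.05, against 1.51% of all genes tested. Of the others 0 rose and 8 did not pass, and the median log2 fold change of the 17 was -1.43. All 17 had a negative log2 fold change, between -1.67 and -0.48. In 16 of the 17 every +PBS-1w library lay below every sub-SCI library, as it did for 13.4% of all genes tested. Summed over the 17 genes, the sub-SCI libraries held 509, 607 and 940 CPM and the +PBS-1w libraries 351, 210.1 and 272 CPM, against 49.0 to 102 CPM in Intact. The 6 values do not overlap, and all 3 of +PBS-1w stayed above the highest Intact library.

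Several of the genes that fell are entry and exit switches of mitosis, and promoters of some are shown because they share short sequence elements. The list of mitosis genes was chosen with earlier results of these data known. Each line gives 180 bases, 150 before to 30 after the annotated start, from RefSeq on build GRCr8, with CCAAT boxes and TTTGAA elements (the cell cycle genes homology region, CHR) in capitals on either strand.
Ccnb1 (chr2:33655196-33655375, minus strand): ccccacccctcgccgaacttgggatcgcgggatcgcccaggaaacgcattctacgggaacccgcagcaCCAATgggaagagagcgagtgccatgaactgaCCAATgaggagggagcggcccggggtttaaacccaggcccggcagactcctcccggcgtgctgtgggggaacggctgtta
Cdc20 (chr5:137255770-137255949, minus strand): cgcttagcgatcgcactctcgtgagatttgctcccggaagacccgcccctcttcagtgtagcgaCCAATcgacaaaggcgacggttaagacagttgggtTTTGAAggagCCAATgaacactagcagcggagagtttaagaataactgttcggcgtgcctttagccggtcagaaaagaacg
Plk1 (chr1:186147508-186147687, plus strand): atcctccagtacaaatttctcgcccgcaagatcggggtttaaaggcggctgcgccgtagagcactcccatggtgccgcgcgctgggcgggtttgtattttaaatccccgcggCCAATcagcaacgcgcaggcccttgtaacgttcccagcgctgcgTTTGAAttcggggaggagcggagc
Cdk1 (chr20:19265143-19265322, plus strand): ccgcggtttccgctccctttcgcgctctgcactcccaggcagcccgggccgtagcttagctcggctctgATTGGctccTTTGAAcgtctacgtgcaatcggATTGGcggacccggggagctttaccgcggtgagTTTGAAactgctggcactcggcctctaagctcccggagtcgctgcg
Of the 18 mitosis genes listed, 15 had a promoter in the RefSeq table. Within 250 bases before and 50 after the start, TTTGAA occurred on either strand in 10 of these 15 promoters (66.7%), against 18.3% of the 33469 promoters of that length. CCAAT occurred in 12 (80.0%, against 37.5%) and at 2 or more places in 9 (60.0%, against 11.2%). The Ccnb1 window shown holds 2 CCAAT boxes and no TTTGAA. A match describes the sequence and is not evidence of binding.

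Ccnb1 (ENSRNOG00000058539), which encodes cyclin B1, the partner of Cdk1 at mitotic entry, was the only DEG of the list. It stood at 19.3, 22.2 and 39.8 CPM in the sub-SCI libraries and 12.6, 7.12 and 8.85 CPM in the +PBS-1w libraries, so that the groups did not overlap and sub-SCI replicate 3 was the highest. Its log2 fold change was -1.51 (quasi-likelihood test of edgeR, SE 0.275, adjusted p = 0.009). With the replicate block the adjusted p was 0.0113, just outside the DEG threshold. The kinase Cdk1 itself was at 32.4, 31.3 and 55.4 CPM in sub-SCI and 17.1, 8.88 and 13.9 CPM in +PBS-1w, and fell by 1.58 on the log2 scale (same edgeR test, SE 0.423, adjusted p = 0.0475). Polo-like kinase Plk1 was at 21.9, 22.6 and 38.6 CPM and then 14.4, 6.75 and 8.53 CPM. Cdc20, which activates the anaphase-promoting complex, was at 29.2, 32.0 and 51.7 CPM and then 16.2, 9.36 and 15.01 CPM. In both genes the lowest sub-SCI library lay above the highest +PBS-1w library, and the log2 fold changes were -1.48 and -1.48 (same edgeR test, adjusted p = 0.0134 and 0.0234). The spindle checkpoint kinase Bub1, the survivin gene Birc5, cyclin A2 (Ccna2), the ubiquitin-conjugating enzyme Ube2c and the kinesin Kif20a also fell, with log2 fold changes of -1.47, -1.39, -1.57, -1.67 and -0.78 (same edgeR test, adjusted p = 0.0108, 0.0207, 0.026, 0.0412 and 0.0207).
The list's median moved little when single libraries were left out, from -1.68 to -1.12, but its calls did not hold throughout. Without sub-SCI replicate 3, without +PBS-1w replicate 2 or without replicate 3 of both groups, 0 of the 17 genes passed an adjusted p of 0.05, with medians of -1.12, -1.23 and -1.07.

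Genes of DNA replication were among those that fell. Of 20 tested, 8 fell, against 1.51% of all genes tested, 0 rose and 12 did not pass. The median log2 fold change was -0.84, with all 20 values negative. In 17 of the 20 every +PBS-1w library lay below every sub-SCI library, as it did for 13.4% of all genes tested. Mcm6, a subunit of the MCM helicase that unwinds DNA, was at 39.8, 44.9 and 67.1 CPM in sub-SCI and 28.8, 18.02 and 23.3 CPM in +PBS-1w. Its log2 fold change was -1.11 (quasi-likelihood test of edgeR, SE 0.231, adjusted p = 0.0148). Other subunits of the helicase fell as well, Mcm2 by 0.82, Mcm3 by 0.85 and Mcm4 by 0.64 on the log2 scale (same edgeR test, adjusted p = 0.0305, 0.0297 and 0.0248). Rrm1, the large subunit of ribonucleotide reductase, which makes deoxynucleotides, was at 66.8, 78.8 and 102 CPM and then 57.9, 47.9 and 54.2 CPM, with every sub-SCI library above every +PBS-1w library. It fell by 0.63 on the log2 scale and its small subunit Rrm2 fell by 1.33 (same edgeR test, adjusted p = 0.0116 and 0.042). The origin licensing factor Cdt1 and Uhrf1, which maintains DNA methylation at replication, had log2 fold changes of -1.08 and -1.07 (same edgeR test, adjusted p = 0.0409 and 0.0491). Without sub-SCI replicate 3, without +PBS-1w replicate 2 or without replicate 3 of both groups, 0 of the 20 genes passed, with medians of -0.65, -0.71 and -0.59.
CCAAT occurred in 13 of the 17 promoters found for the 20 replication genes (76.5%) and at 2 or more places in 7 (41.2%), against 80.0% and 60.0% of the mitosis promoters. TTTGAA occurred in 1 of the 17 (5.88%), whereas 1 of the E2F-type elements TTCCCGC and TTGGCGC occurred in 12 (70.6%), against 2 of 15 mitosis promoters (13.3%) and 6.26% of all promoters. The Mcm6 promoter is shown over the same 180 bases with TTGGCGC in capitals. TTGGCGC overlaps the reverse complement of CCAAT where an A precedes it, which is the case at neither site shown. The separate matches to that reverse complement (attgg) are left in lower case.
Mcm6 (chr13:42404323-42404502, minus strand): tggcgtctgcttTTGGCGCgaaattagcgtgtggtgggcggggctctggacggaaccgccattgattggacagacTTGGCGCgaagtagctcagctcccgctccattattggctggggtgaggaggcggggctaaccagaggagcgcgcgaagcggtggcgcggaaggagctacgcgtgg

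Set beside uninjured cord, the division genes were still above Intact at day 14. Ccnb1 averaged 3.02 ± 0.544 CPM (SD, n = 4) in Intact, with a log2 fold change of 3.16 in sub-SCI and 1.65 in +PBS-1w (same edgeR test, adjusted p = 2.72e-09 and 1.94e-05). For Mcm6 the corresponding values were 2.97 and 1.86 (same edgeR test, adjusted p = 5.79e-10 and 5.2e-07). Over the lists, the medians against Intact were 3.45 and 2.12 for the mitosis genes and 1.92 and 1.12 for the replication genes. These 2 comparisons share the Intact libraries with each other and their injured libraries with the comparison of day 14 and day 7.

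**Figure D2:**
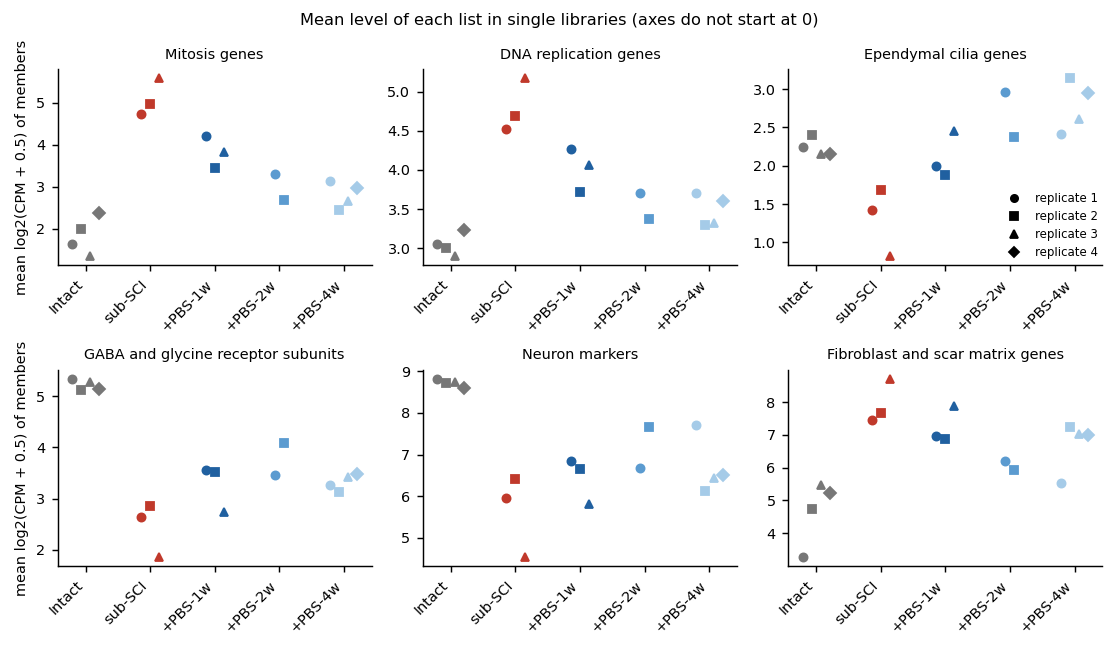
Each point is 1 library, with the mean log2(CPM + 0.5) of the members of 6 gene lists on the y axis and the Intact and vehicle groups on the x axis. The mitosis and replication lists are highest in the 3 sub-SCI libraries and the cilia list is lowest there, and replicate 3 lies apart within sub-SCI in all 6 panels.

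Further DEGs that fell, Dsn1, Stil and Deup1, belong to the kinetochore and the centrioles. Dsn1, a subunit of the kinetochore complex that ties chromosomes to spindle fibers, was at 15.8, 19.5 and 27.1 CPM in sub-SCI and 8.14, 8.58 and 9.57 CPM in +PBS-1w. Stil, needed for centriole duplication, was at 6.69, 10.7 and 14.4 CPM and then 4.58, 3.95 and 4.40 CPM. Neither gene's groups overlapped, and the log2 fold changes were -1.25 (SE 0.212, adjusted p = 0.00649) and -1.30 (quasi-likelihood test of edgeR, SE 0.227, adjusted p = 0.00757). Deup1, which builds centrioles for multiciliated cells, went from 2.70, 2.94 and 6.61 CPM to 0.535, 0.336 and 0.600 CPM, a log2 fold change of -3.04 (same edgeR test, SE 0.518, adjusted p = 0.00649). Intact cord held 0.328 ± 0.121 CPM (SD, n = 4). With the replicate block, Stil and Deup1 missed the DEG threshold at adjusted p of 0.0113 and 0.0105.

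Among the iron and heme genes the 2 that changed both fell, and both were DEGs. Hmox1 (ENSRNOG00000014117), heme oxygenase 1, which breaks down the heme of taken-up blood, was at 522, 534 and 743 CPM in sub-SCI and 285, 143 and 163 CPM in +PBS-1w. The lowest sub-SCI library lay well above the highest +PBS-1w library, and the log2 fold change was -1.61 (quasi-likelihood test of edgeR, SE 0.267, adjusted p = 0.00584). Intact cord held 15.8 ± 2.52 CPM (SD, n = 4), so Hmox1 at day 14 was still above every Intact library (log2 fold change 3.64 against Intact, adjusted p = 5.41e-10, same edgeR test). Tfrc, the transferrin receptor through which cells take up iron, was at 179, 269.8 and 239 CPM and then 139.7, 106 and 83.5 CPM, a log2 fold change of -1.06 (same edgeR test, SE 0.173, adjusted p = 0.00473). Intact cord held 179 ± 10.7 CPM (SD, n = 4), with a log2 fold change of 0.36 in sub-SCI (adjusted p = 0.055) and -0.70 in +PBS-1w (adjusted p = 0.00103, same edgeR test). Both genes stayed under an adjusted p of 0.05 with each of the 6 libraries left out in turn. Without replicate 3 of both groups Tfrc had an adjusted p of 0.0442 and Hmox1 of 0.0622. The other 11 of 13 genes tested did not pass, and the median of the list was -0.24. Of all genes tested, 0.106% were lower DEGs and 1.51% were lower at an adjusted p under 0.05. The 4 red blood cell genes tested, whose transcripts come with blood in the tissue, summed to 662 to 801 CPM in sub-SCI and 146 to 412 CPM in +PBS-1w, with 0 of 4 called. Their part in the Hmox1 and Tfrc values was not tested.

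Few macrophage and immune genes passed the test. Of all genes tested, 1.33% passed as higher and 1.51% as lower. Of 15 phagocytic macrophage and microglia genes 0 were called, and their median log2 fold change was -0.29. Lgals3, galectin 3, was at 1049, 1164 and 1417 CPM and then 885, 479.8 and 777 CPM with an adjusted p of 0.195 (edgeR's quasi-likelihood test), although these values do not overlap. Of 15 lysosome genes only Ctsl passed, which encodes the protease cathepsin L. It went from 1264, 1415 and 1863 CPM to 812, 758 and 838 CPM and fell by 0.92 on the log2 scale (same edgeR test, SE 0.144, adjusted p = 0.00392), just under the fold threshold of a DEG. Its call at an adjusted p of 0.05 held with each of the 6 libraries left out in turn. The homeostatic microglia genes (11 tested, 0 called, median 0.29) and the neutrophil and early monocyte genes (11 tested, 0 called, median 0.04) showed no call either. Of 13 genes of T, B and NK cells 0 were called, with a median of -0.67. Of these, 5 of 13 were below without overlap, against 13.4% of all genes tested.
Among complement genes, 1 rose and 1 fell. C4a rose from 2.38, 2.21 and 2.20 CPM to 5.77, 10.3 and 9.53 CPM, a log2 fold change of 1.91 (quasi-likelihood test of edgeR, SE 0.29, adjusted p = 0.00335). C4a encodes complement component C4, has the near-identical paralog C4b, and its reads may have been split between the 2 genes. C5ar1, the receptor for the complement fragment C5a, fell from 71.4, 87.2 and 92.1 CPM to 46.5, 30.6 and 32.1 CPM (log2 fold change -1.198, SE 0.285, adjusted p = 0.0277, same edgeR test). The other 14 of 16 complement genes did not pass, and the median was 0.37.
Of 17 chemokines and cytokines, 1 fell and 1 passed as higher. Ccl5, which attracts T cells and monocytes, was at 21.8, 16.3 and 11.3 CPM in sub-SCI and 1.25, 5.41 and 2.68 CPM in +PBS-1w, a log2 fold change of -2.41 (same edgeR test, SE 0.575, adjusted p = 0.0278). Cxcl13, a B-cell attractant, was at 4.97, 5.62 and 2.03 CPM and then 4.99, 189.5 and 6.08 CPM. Its high value lies in 1 library, the groups overlap, and its log2 fold change of 3.99 (same edgeR test, adjusted p = 0.0351) became 0.39 (adjusted p = 0.838) without +PBS-1w replicate 2. Its adjusted p was 0.062 with the replicate block. The matrix metalloproteinase Mmp7 fell from 22.2, 27.8 and 21.9 CPM to 0.654, 0.410 and 1.00 CPM without overlap, a log2 fold change of -5.12 (same edgeR test, SE 1.32, adjusted p = 0.0408), and was the only one of 15 proteases and inhibitors called. It lost the call in 5 of the 6 fits that leave out 1 library, with log2 fold changes of -5.47 to -4.86.

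Genes of astrocytes and of ependymal cells, which line the central canal and move fluid with motile cilia, moved in both directions. Gjb6, the astrocyte gap junction protein connexin 30, was the only 1 of 12 homeostatic astrocyte genes called. Its values were 19.7, 16.3 and 18.04 CPM and then 32.4, 32.3 and 94.3 CPM, a log2 fold change of 1.56 (quasi-likelihood test of edgeR, adjusted p = 0.0158), and without +PBS-1w replicate 3 it was 0.85 (adjusted p = 0.0554). The median of the 12 was 0.57.
Of 11 reactive astrocyte genes, 2 fell, against 1.51% of all genes tested, and 0 rose, with a median of -0.27. Tnc, tenascin C, a matrix protein of the scar, went from 435, 535 and 963 CPM to 125, 130.3 and 153 CPM, a log2 fold change of -2.24 (same edgeR test, SE 0.532, adjusted p = 0.0277). Nes, the intermediate filament nestin of precursors and reactive astrocytes, went from 68.5, 58.5 and 76.4 CPM to 33.2, 29.95 and 38.1 CPM, a log2 fold change of -1.01 (same edgeR test, SE 0.213, adjusted p = 0.0162). In both genes every sub-SCI library exceeded the other 23 libraries of the series.
Several ependymal cilia genes rose. Of 13 genes tested 4 rose, against 1.33% of all genes tested, 0 fell and 9 did not pass. The median log2 fold change was 1.29, with 12 positive values. In 6 of the 13 every +PBS-1w library lay above every sub-SCI library, as it did for 10.4% of all genes tested. Dnah9, an outer arm dynein that drives ciliary beating, was at 7.21, 9.90 and 4.75 CPM in sub-SCI and 15.4, 17.2 and 16.9 CPM in +PBS-1w, a log2 fold change of 1.18 (same edgeR test, SE 0.228, adjusted p = 0.0106). Hydin, of the central pair of the cilium, was at 5.12, 7.50 and 1.97 CPM and then 13.9, 11.5 and 16.7 CPM, and Cfap43, a further axoneme protein, at 3.63, 3.62 and 1.29 CPM and then 6.27, 6.12 and 9.09 CPM. With the dynein light chain Dynlrb2 they had log2 fold changes of 1.53, 1.33 and 1.49 (same edgeR test, adjusted p = 0.0436, 0.0414 and 0.0407). All 4 genes had their lowest value in sub-SCI replicate 3. The DEG Efcab1, which encodes a protein of motile cilia, went from 4.16, 3.23 and 3.05 CPM to 6.93, 8.95 and 7.53 CPM (log2 fold change 1.16, SE 0.212, adjusted p = 0.009, same edgeR test). With the replicate block 2 of the 13 cilia genes passed in place of 4, and Efcab1 had an adjusted p of 0.0117. Without sub-SCI replicate 3, 0 of 13 passed and the median was 0.95, without replicate 3 of both groups 0 passed and it was 0.66, and in the other 5 fits that leave out 1 library 1 to 5 passed.

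**Figure D3:**
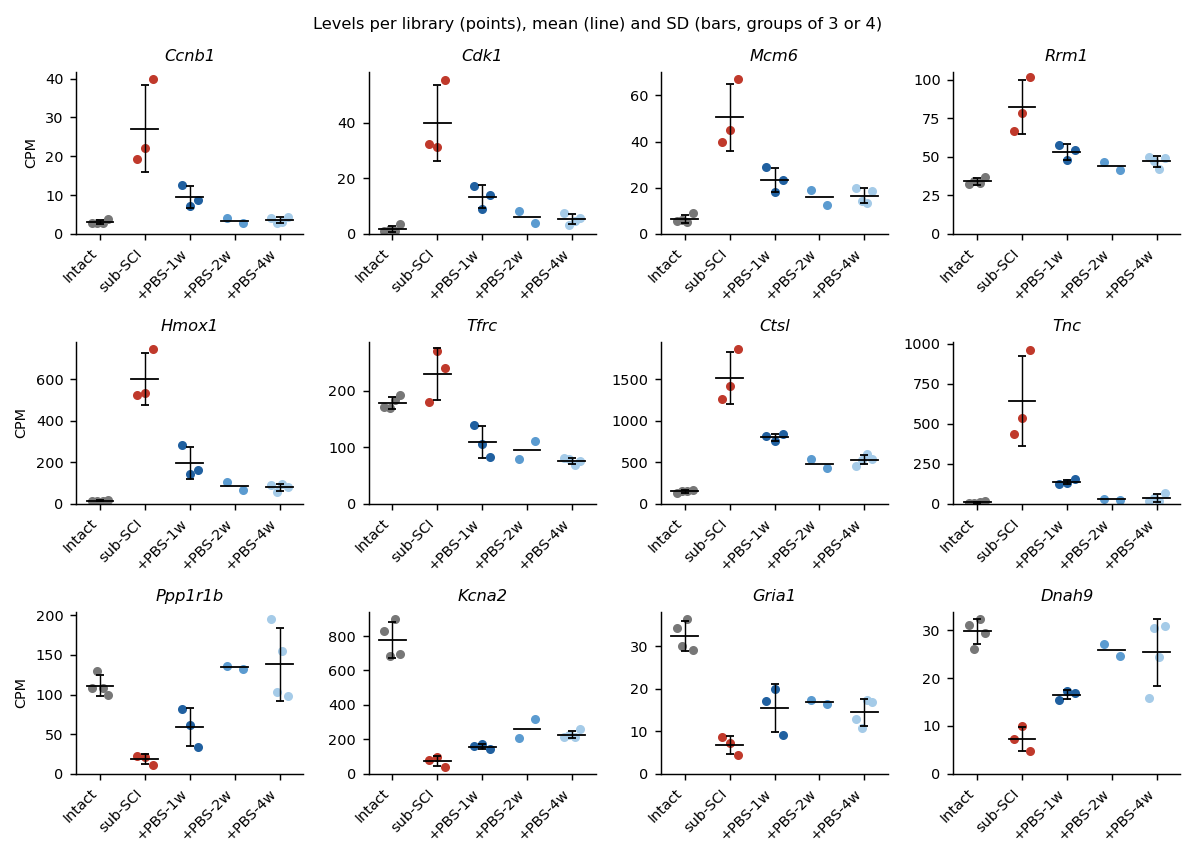
CPM of 12 genes is plotted on axes that start at 0, with 1 point per library of Intact, sub-SCI and the 3 vehicle groups, a line at the mean and SD bars for groups of 3 or 4. For Ccnb1, Cdk1, Mcm6, Rrm1, Hmox1, Tfrc, Ctsl and Tnc the sub-SCI libraries are higher than those of +PBS-1w, and for Ppp1r1b, Kcna2, Gria1 and Dnah9 they are lower.

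Genes of neurons were higher at day 14 in most members, but few passed the test. Of 15 neuron markers 0 were called, although all 15 log2 fold changes were positive (0.26 to 1.23, median 0.61). Every +PBS-1w library lay above every sub-SCI library in 1 of the 15, against 10.4% of all genes tested. The same held for 3 of 15 presynaptic vesicle genes and 4 of 17 GABA and glycine receptor subunits. It also held for 4 of 15 ionotropic glutamate receptor subunits and 5 of 15 sodium and potassium channel subunits. Rbfox3, the nuclear marker NeuN, was at 6.54, 9.90 and 3.32 CPM and then 15.4, 14.8 and 8.69 CPM, which overlap (quasi-likelihood test of edgeR, adjusted p = 0.166). Intact held 69.4 ± 6.93 CPM (SD, n = 4). Of 15 presynaptic vesicle genes 2 rose, Cplx2 and Sv2c, against 1.33% of all genes tested. The complexin gene Cplx2, which controls vesicle fusion, went from 18.7, 20.8 and 17.8 CPM to 32.9, 34.8 and 27.5 CPM (log2 fold change 0.73, SE 0.176, adjusted p = 0.0288, same edgeR test). Sv2c, a vesicle glycoprotein, went from 5.03, 7.79 and 5.02 CPM to 37.2, 19.5 and 11.9 CPM (log2 fold change 1.95, SE 0.458, adjusted p = 0.0268, same edgeR test). Neither gene's groups overlapped.
Among receptor and channel subunits, 1 or 2 members of each list rose, against 1.33% of all genes tested. Of 17 GABA and glycine receptor subunits, which carry inhibition in the cord, 2 rose, 0 fell and 15 did not pass. Their median log2 fold change was 0.97, with all 17 positive, and the list includes Gabbr1 and Gabbr2 of the metabotropic GABA-B receptor. Gabrg1 was at 19.2, 18.2 and 10.4 CPM and then 36.8, 49.4 and 16.2 CPM, and Glra1, the main adult glycine receptor subunit, at 6.71, 11.2 and 2.88 CPM and then 23.5, 24.1 and 9.89 CPM. In both genes +PBS-1w replicate 3 lay within the day 7 range (log2 fold changes 1.10 and 1.47, adjusted p = 0.0288 and 0.0409, same edgeR test). Of 15 ionotropic glutamate receptor subunits Gria1 alone rose, from 8.69, 7.29 and 4.51 CPM to 17.2, 19.9 and 9.05 CPM (log2 fold change 1.17, SE 0.27, adjusted p = 0.0248, same edgeR test), and the median was 0.69. Of 15 voltage-gated sodium and potassium channel subunits 2 rose, among them Kcna2, and the median was 0.95. Kcna2, the Kv1.2 channel of axons, went from 82.9, 96.4 and 40.1 CPM to 159.6, 171 and 144 CPM without overlap, a log2 fold change of 1.11 (same edgeR test, SE 0.216, adjusted p = 0.0107). The chloride extruder Slc12a5 (KCC2), which sets the sign of GABA responses, was at 34.7, 47.4 and 11.5 CPM and then 86.0, 71.9 and 44.5 CPM against 428 ± 46.2 CPM (SD, n = 4) in Intact. Its log2 fold change of 1.11 had an SE of 0.409 and an adjusted p of 0.138 (same edgeR test).
The DEGs Ppp1r1b and Negr1, both known from neurons, also rose, and whether neurons are their source here was not tested. Ppp1r1b, the phosphatase inhibitor DARPP-32, went from 22.7, 21.1 and 11.1 CPM to 82.3, 61.0 and 34.2 CPM, and Negr1, a cell adhesion protein of axons, from 5.84, 4.89 and 3.32 CPM to 15.3, 13.1 and 9.69 CPM. Their log2 fold changes were 1.69 and 1.44 (quasi-likelihood test of edgeR, SE 0.307 and 0.265, adjusted p = 0.0089 and 0.0092). Mapk4, an atypical MAP kinase, rose from 24.8, 21.8 and 15.4 CPM to 48.4, 48.3 and 35.9 CPM (log2 fold change 1.10, adjusted p = 0.009, same edgeR test). In these 3 genes every sub-SCI library lay below all 23 other libraries of the series. All 3 were still below Intact at day 14, with log2 fold changes of -0.91, -1.53 and -0.85 (same edgeR test, adjusted p = 0.00988, 2.76e-05 and 0.000659). Ppp1r1b then averaged 134 CPM in +PBS-2w (n = 2) and 138 CPM in +PBS-4w (n = 4), against 111 CPM in Intact (n = 4). Negr1 averaged 16.1 and 15.2 CPM in these vehicle groups, against 36.9 CPM in Intact. The summed neuron markers had medians of 5200 and 2819 CPM in these groups, against 14889 CPM in Intact. The 2 libraries of +PBS-2w held 3511 and 6890 CPM and the 4 of +PBS-4w 2306 to 8247 CPM, so that these 2 groups overlap. With the replicate block Ppp1r1b stayed a DEG, and Negr1 and Mapk4 had adjusted p of 0.0113 and 0.0132.
The medians of the neuron lists were lower without sub-SCI replicate 3, the library with the fewest neuron transcripts. They were 0.31 for the neuron markers, 0.28 for the presynaptic genes, 0.72 for the GABA and glycine receptor subunits, 0.40 for the glutamate receptor subunits and 0.60 for the channel subunits, and 1 gene of the 5 lists was called. Without replicate 3 of both groups the medians were 0.53, 0.47, 0.95, 0.60 and 0.88 in the same order.

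**Figure D4:**
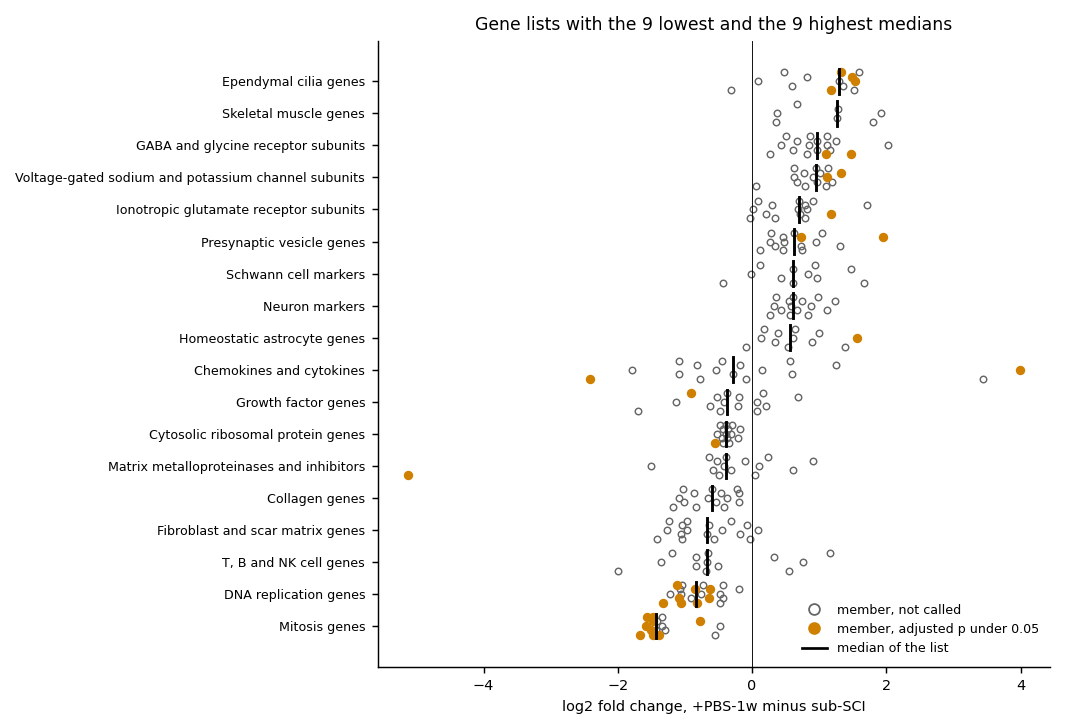
Each circle is 1 member gene, with its log2 fold change of +PBS-1w over sub-SCI on the x axis and the 9 lists with the lowest and the 9 with the highest medians on the y axis. Filled circles passed an adjusted p of 0.05 and bars mark list medians, which run from -1.43 for the mitosis genes to 1.29 for the ependymal cilia genes.

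Myelin genes gave a median change near 0, with 1 call. Of 12 genes of mature oligodendrocytes 1 rose, with a median log2 fold change of 0.01, and 0 of 13 genes of oligodendrocyte precursors passed (median 0.09). Aspa, aspartoacylase, which supplies acetate for myelin lipids, went from 58.9, 53.5 and 50.4 CPM to 80.1, 101 and 104 CPM without overlap (quasi-likelihood test of edgeR, log2 fold change 0.81, SE 0.19, adjusted p = 0.0277). Of 11 Schwann cell markers 0 were called. Summed over the 11 genes, the sub-SCI libraries held 628, 579 and 1182 CPM and the +PBS-1w libraries 576, 653 and 4122 CPM, where 1 library of day 14 is far above the other 5. The median of the list was 0.61 with that library, +PBS-1w replicate 3, -0.71 without it and -0.27 without replicate 3 of both groups.
The scar genes gave negative medians and 0 calls. The median log2 fold change was -0.60 over 15 collagen genes, all 15 negative, and -0.67 over 17 fibroblast and scar matrix genes, 16 negative. Col1a1, the chain of fibrillar collagen I, was at 3022, 3215 and 6001 CPM in sub-SCI and 1554, 1280.4 and 2904 CPM in +PBS-1w (log2 fold change -1.09, SE 0.703, adjusted p = 0.429, same edgeR test). Fibronectin, Fn1, was at 1355, 1866 and 5829.9 CPM and then 1066, 902 and 1869 CPM (log2 fold change -1.24, SE 0.5681, adjusted p = 0.243, same edgeR test). Within each group replicate 3 was the highest for both genes. In each same-numbered pair the +PBS-1w library was lower than the sub-SCI library for both genes. Without sub-SCI replicate 3 alone the medians were -0.24 and -0.16, and without replicate 3 of both groups they were -0.72 and -0.71.

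Of the remaining genes named, Ckap4 and Pdia5 of the endoplasmic reticulum were DEGs. The glycolysis, ribosomal, stress and growth factor lists each held 1 gene that fell, against 1.51% of all genes tested. With 527 genes of 41 lists tested, a single call says little about its list. Ckap4, a protein that shapes the rough endoplasmic reticulum, went from 96.5, 114 and 189 CPM to 54.2, 49.1 and 67.6 CPM (quasi-likelihood test of edgeR, log2 fold change -1.22, SE 0.191, adjusted p = 0.00392). Pdia5, a protein disulfide isomerase of the same compartment, went from 16.2, 16.8 and 24.7 CPM to 4.96, 8.77 and 6.89 CPM (log2 fold change -1.48, SE 0.274, adjusted p = 0.0092, same edgeR test, and 0.0139 with the replicate block). Both are DEGs whose groups did not overlap. Ldha, lactate dehydrogenase A, the last step of anaerobic glycolysis, went from 314, 295 and 509 CPM to 246, 179 and 174 CPM and was the only 1 of 15 glycolysis and hypoxia genes called (log2 fold change -0.90, adjusted p = 0.0111, same edgeR test). All 15 ribosomal protein genes had negative log2 fold changes (median -0.38), and Rps2 passed at -0.55 (same edgeR test, adjusted p = 0.0403). Ribosomal genes have many processed copies, so their reads may have been split. Of 11 protein folding and stress genes Hspa1b alone passed, at 13.5, 2.79 and 3.59 CPM and then 1.49, 1.902 and 1.72 CPM. It is a near-identical copy of Hspa1a, its high value lies in sub-SCI replicate 1, and the log2 fold change of -1.96 (same edgeR test, adjusted p = 0.0277) became -0.91 (adjusted p = 0.193) without that library. Of 15 growth factor genes Tgfb2, transforming growth factor beta 2, passed, from 69.0, 75.6 and 148 CPM to 51.3, 48.6 and 55.7 CPM (log2 fold change -0.91, adjusted p = 0.0309, same edgeR test). No gene was called among the 21 genes of cholesterol synthesis (median -0.27, all 21 negative), 12 of cholesterol efflux (-0.05), 13 of the respiratory chain (-0.16), 16 interferon-stimulated genes (0.42, and -0.18 without replicate 3 of both groups), 10 of MHC class II (0.03), 13 of endothelium (0.05), 11 of chondroitin sulfate proteoglycans (0.21), 12 of the axon injury response (0.03), 10 immediate early genes (0.08) and 7 of skeletal muscle (1.26).

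For some DEGs the sub-SCI libraries alone differed from the rest of the series. Every sub-SCI library lay above all 23 other libraries in 17 of the 19 lower DEGs and in 251 of the 272 lower genes at an adjusted p under 0.05, as in 5.91% of all genes tested. The corresponding counts below all others were 7 of 9 and 163 of 239, against 3.2%. The sub-SCI libraries are part of both the call and this count. Slc35c2, a member of a family of nucleotide sugar transporters, was at 88.6, 103 and 92.7 CPM in sub-SCI and 34.3, 32.1 and 39.4 CPM in +PBS-1w, against 40.5 ± 8.01 CPM (SD, n = 4) in Intact. Its log2 fold change was -1.43 (quasi-likelihood test of edgeR, SE 0.205, adjusted p = 0.00242), and that of +PBS-1w against Intact was -0.20 (adjusted p = 0.397, same test). Calcb, which encodes the neuropeptide beta-CGRP of sensory and motor neurons, was at 37.2, 37.2 and 40.3 CPM and then 6.18, 5.04 and 4.48 CPM, against 9.12 ± 3.64 CPM (SD, n = 4) in Intact (log2 fold change -2.87, SE 0.416, adjusted p = 0.00242, same edgeR test). The desmosome protein gene Pkp1 was at 22.4, 32.0 and 86.7 CPM and then 12.7, 9.51 and 13.9 CPM (log2 fold change -1.97, adjusted p = 0.00825, same edgeR test). The forkhead gene Foxr1 was at 3.69, 0.544 and 2.75 CPM and then 0.268, 0.187 and 0.240 CPM (log2 fold change -3.30, adjusted p = 0.0089, same edgeR test), and its sub-SCI replicate 2 was near the level of the other groups. Pkp1 had an adjusted p of 0.0117 with the replicate block.
Of the 28 DEGs, 9 carry only a clone or locus name. Among the lower ones, 4 are annotated as miRNA genes, AABR07063425.2, AABR07015079.1, AABR07063421.1 and AABR07015080.1, although the libraries were made from poly(A) RNA. AABR07063425.2 was at 29.3, 46.4 and 41.2 CPM in sub-SCI and 2.50, 3.10 and 4.40 CPM in +PBS-1w, against 2.99 ± 1.11 CPM (SD, n = 4) in Intact, a log2 fold change of -3.55 (same edgeR test, SE 0.491, adjusted p = 0.00242). The other 3 had log2 fold changes of -4.11, -3.49 and -2.99 (same edgeR test, adjusted p = 0.00242, 0.00473 and 0.0089). Of 159 such genes tested 6 fell and 0 rose at an adjusted p under 0.05, against 1.51% lower and 1.33% higher of all genes tested. The protein-coding AABR07015057.1 was at 16.2, 21.1 and 7.66 CPM and then 1.75, 0.373 and 0.881 CPM, and AABR07070117.1 and LOC689757 fell by 1.29 and 2.02 on the log2 scale (same edgeR test, adjusted p = 0.00392, 0.00649 and 0.00825). Of the 2 higher ones, AABR07032520.1 went from 3.89, 3.04 and 2.68 CPM to 7.97, 10.1 and 9.85 CPM (log2 fold change 1.53, adjusted p = 0.00242, same edgeR test). AABR07004703.1 had 0, 0 and 1 counted reads in the sub-SCI libraries and 20, 19 and 6 in the +PBS-1w libraries, too few for a fold to be given. With the replicate number as a block, LOC689757 and AABR07004703.1 missed the DEG threshold at adjusted p of 0.0132 and 0.0128. These genes overlap or repeat other sequence to an unknown extent, since the strand setting and annotation release of the counting are not given in the sources used here.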

How the data were processed

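RNA of 26 rat spinal cord segments in 8 groups was sequenced as poly(A) libraries. The deposited values are raw counts per gene, which the authors made by trimming with Trim Galore 0.5.0, removing reads aligned to the human genome, aligning the rest to the rat build Rnor6 with HISAT2 2.1.0, keeping proper pairs with SAMtools 1.9 and counting with featureCounts 1.6.4. The annotation release and strand setting are not given in the sources used here. Of 32883 genes, 6513 had no count.

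From these counts, genes were filtered with filterByExpr (minimum count 10, minimum total 15), scaled by TMM and tested with edgeR 4.0.16 (R 4.3.3, quasi-likelihood test, Benjamini-Hochberg adjustment) in 1 model of all 26 libraries. CPM are TMM-scaled. The members and gene lists were chosen with earlier results of these data known. Named genes are the 15 higher and 15 lower DEGs of smallest adjusted p and the 5 of largest fold at 5 CPM or more in the higher group, leaving out clone and locus names, and the called members of each list (otherwise its first 2 members). Genes outside this rule were named after their values were seen, namely the DEGs with clone or locus names, the mitosis genes other than Ccnb1, C5ar1, Maob and the genes of the other observations. Some genes that the rule names are not reported here. Cation-chloride cotransporters (2 tested) had 0 calls and a median log2 fold change of 0.56.

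Alternatives were DESeq2 1.42.0 (the study's test, in another version), other filters and scaling, the 6 libraries alone, a replicate block, and leaving out single libraries. Same-numbered libraries of the 2 groups deviated together (correlations over genes of 0.19, 0.20 and 0.41 for replicates 1, 2 and 3), and differently numbered ones correlated at -0.31 to 0.19. With every same-numbered value over 0.1 the numbers were treated as pairing the libraries. Sub-SCI replicate 1 and +PBS-1w replicate 2 also correlated at 0.19, so that only the pair of replicate 3 stands out from differently numbered libraries. The blocked fit is given where it changes a call, while the fit reported is without the block. The labels do not say what a number shares. No 2 of the 6 libraries agreed within sampling noise (chi-square per gene 37.45 or more). On simulated counts for this comparison (17816 genes, 200 of them changed by 2 on the log2 scale), edgeR over all libraries recovered 159 with 1 false call, and on the 6 libraries alone (16366 genes) 155 with 0 false calls. The simulated spread followed only the trend with a gene's level, and the libraries were drawn independently. It left out gene-specific spread and the shared deviation of same-numbered libraries, so it does not give the recovery in these data. Promoter motifs were searched in RefSeq promoters of build GRCr8.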

Additional observations from a re-analysis of the deposited data

Results flagged for a closer look

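In groups of 4 libraries, the Intact and +PBS-4w levels of the named genes were searched for a library far from the other 3, and 9 of 178 such groups held one, where chance gives about 1 in 20. None of these libraries is in the day 7 or day 14 group, since groups of 3 were not searched. In Intact, Mapk4 was at 71.9 CPM in replicate 1 (82.2 to 83.4 CPM in the others) and Slc35c2 at 52.5 CPM in replicate 3 (36.0 to 37.2 CPM). Ccnb1 was at 3.84 CPM in Intact replicate 4 (2.73 to 2.78 CPM), and Maob, monoamine oxidase B, at 46.8 CPM in the same library (43.0 to 43.3 CPM). Sec61b was at 18.6 CPM in Intact replicate 1 (16.7 CPM in each of the others). In +PBS-4w, Spc24 was at 5.89 CPM (4.04 to 4.30 CPM) and Abat at 80.1 CPM (155 to 169 CPM), both in replicate 1. Cxcl13 was at 8.15 CPM in +PBS-4w replicate 2 (4.70 to 5.28 CPM) and Ckap4 at 31.1 CPM in replicate 3 (38.6 to 39.1 CPM).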

How the results depend on the processing

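The counts of called genes depended on the test and on single libraries. DESeq2 on all libraries called 149 higher and 123 lower DEGs, and 616 and 643 genes at an adjusted p under 0.05. On the 6 libraries alone DESeq2 called 104 and 140 DEGs, and 432 and 443 genes, whereas edgeR called 0 and 0 DEGs, and 4 and 6 genes. Without the expression filter there were 4 higher DEGs, and 156 higher and 157 lower genes at an adjusted p under 0.05. With the replicate block 4 higher DEGs were called over all libraries, and over the 6 libraries 0 higher and 0 lower DEGs, and 1 and 2 genes. A term for replicate 1 gave 19 higher and 33 lower DEGs, and leaving out replicate 1 of both groups gave 103 and 161 genes at an adjusted p under 0.05. Leaving out replicate 3 of both groups, added after seeing the data, gave 0 higher and 0 lower DEGs, and 92 and 29 genes. Leaving out each of the 6 libraries gave 0 to 68 higher and 0 to 38 lower DEGs, and 12 to 521 higher and 20 to 344 lower genes at an adjusted p under 0.05. The cause of these shifts was not tested. Over all alternatives, 913 values of named genes kept direction and call status, 589 kept direction and lost the call, and 0 reversed. The 913 include values of genes that were never called, such as Rbfox3. Most named genes were chosen for their call in the main fit, which favors a kept direction. Of the list medians 666 moved by less than the spread between libraries and 31 by more.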

Other observations

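Some genes called at an adjusted p under 0.05 belong to no list above, and those named here were chosen after their values were seen. All 4 subunits of the Ndc80 complex, which binds spindle microtubules at the kinetochore, fell between day 7 and day 14. Ndc80 was at 17.1, 16.3 and 34.0 CPM in sub-SCI and 9.72, 6.01 and 7.29 CPM in +PBS-1w, and the log2 fold changes of Ndc80, Nuf2, Spc24 and Spc25 were -1.55, -1.36, -1.33 and -1.49 (quasi-likelihood test of edgeR, adjusted p = 0.0133, 0.0124, 0.0149 and 0.0172). Foxm1, a transcription factor of mitotic genes, went from 18.7, 22.6 and 35.2 CPM to 14.4, 9.51 and 14.5 CPM (log2 fold change -0.99, adjusted p = 0.0296, same edgeR test). In each of these 5 genes the sub-SCI libraries lay above all 23 others. P4hb, Ppib and Sec61b of the secretory pathway fell by less than the DEG threshold, the disulfide isomerase P4hb by 0.59, the prolyl isomerase Ppib by 0.51 and the translocon subunit Sec61b by 0.74 on the log2 scale (same edgeR test, adjusted p = 0.0256, 0.037 and 0.0436).

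Abat, which degrades GABA, rose from 47.7, 50.5 and 22.2 CPM to 95.8, 108 and 90.4 CPM without overlap (quasi-likelihood test of edgeR, log2 fold change 1.29, adjusted p = 0.0131). Clu, clusterin, went from 1120.4, 1026 and 1166 CPM to 2218, 2469 and 1905 CPM (log2 fold change 0.99, adjusted p = 0.00825, same edgeR test). Among immune genes, the alarmin gene Il33 went from 118, 155 and 263 CPM to 67.0, 72.3 and 51.4 CPM and arginase, Arg1, from 17.4, 29.8 and 44.2 CPM to 12.04, 11.6 and 4.52 CPM (log2 fold changes -1.49 and -1.69, adjusted p = 0.0105 and 0.0232, same edgeR test). Ifit1 and Scart1 were uneven at day 14. The interferon-induced Ifit1 was at 0.203, 0.254 and 0.305 CPM in sub-SCI and 23.5, 53.6 and 0.120 CPM in +PBS-1w, and the scavenger receptor Scart1 at 0.785, 0.471 and 0.339 CPM and then 36.4, 37.0 and 4.36 CPM, so that replicate 3 was the lowest +PBS-1w library for both (same edgeR test, adjusted p = 0.0251 and 0.0131). Without +PBS-1w replicate 2 the adjusted p of Ifit1 was 0.102.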
